A study of Mus musculus with 9 samples.

Results

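Immediate early genes are transcribed within minutes of a growth factor, cytokine or stress signal, without new protein synthesis. The 10 genes followed here were the zinc finger transcription factors Egr1, Egr2 and Egr3, the orphan nuclear receptors Nr4a1 and Nr4a2, the immediate early response genes Ier2 and Ier3, the MAP kinase phosphatases Dusp1 and Dusp2, and Zfp36, which encodes the mRNA-destabilising protein tristetraprolin. They were taken by gene symbol from the deposited RNA table, where all 10 were found among 22942 rows. The set was chosen by gene family and on known FPKM values of MLL-AF9 and control cells, so those values are given as a description.

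The RNA came from mouse bone marrow mononuclear cells of strain B6.SJL (CD45.1). MLL-AF9 cells were treated with the retroviral vectors MSCVneo-MLL-AF9 and MSCVpuro, and control cells with MSCVneo and MSCVpuro, so that all cells had received both vector backbones. In MSCV vectors the viral long terminal repeat drives the insert, in whichever cell type was infected. MLL-AF9 is a leukemia oncogene in which a part of MLL is joined to a part of AF9. The labels list 3 polyA RNA libraries per group, although the library protocol speaks of duplicates, and give neither the age of the animals nor whether each library came from its own animal. The authors deposited 1 pooled value per gene and group, which the header gives no unit and which was taken as FPKM (fragments scaled for transcript length and library size, a level that can be compared between genes). The spread between libraries, their depth and any overlap of the groups are therefore unknown, and no level below has an error of its own. In these bulk samples, fewer cells of a type and less RNA per cell cannot be told apart.

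The induction of these genes runs mainly through the ERK, p38 and JNK kinases, which act on serum response factor with its ELK partners and on CREB. Serum response factor binds the CArG box and CREB binds the cyclic AMP response element (CRE). EGR proteins bind GC-rich sites and recruit the corepressors NAB1 and NAB2, NR4A receptors act without a known ligand and can pair with retinoid X receptors, and DUSP phosphatases and tristetraprolin shut the response down, the first by dephosphorylating MAP kinases and the second by directing AU-rich mRNAs to deadenylation. In myeloid cells Egr1 and Egr2 are known for monocyte and macrophage differentiation, and Nr4a1 for the survival of patrolling monocytes.

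RefSeq promoter sequence of build GRCm38.p6 was matched for 7 of the 10 genes, and those of Egr1, Egr3 and Ier2 were not matched. The 250 bases before the start are shown, 5′ to 3′ on the gene's strand, for the Nr4a and Dusp pairs, in each of which the authors' comparison called only one gene, and for Egr2, at the first of its 5 annotated starts in the table whose window holds both a CArG box and CRE core sites. They lie at chr2:57124004-57124253 (minus strand) for Nr4a2, chr15:101266596-101266845 (plus) for Nr4a1, chr2:127335909-127336158 (plus) for Dusp2, chr17:26508473-26508722 (minus) for Dusp1 and chr10:67537619-67537868 (plus) for Egr2. Capitals mark CRE core sites (TGACG or its reverse complement), the CArG box and a CArG-like run of 10 bases.
Nr4a2: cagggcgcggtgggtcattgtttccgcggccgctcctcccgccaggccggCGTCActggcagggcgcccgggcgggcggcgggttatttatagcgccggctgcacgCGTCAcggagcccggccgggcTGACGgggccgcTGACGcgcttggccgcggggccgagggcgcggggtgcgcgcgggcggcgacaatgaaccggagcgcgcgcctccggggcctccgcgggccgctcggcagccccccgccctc
Nr4a1: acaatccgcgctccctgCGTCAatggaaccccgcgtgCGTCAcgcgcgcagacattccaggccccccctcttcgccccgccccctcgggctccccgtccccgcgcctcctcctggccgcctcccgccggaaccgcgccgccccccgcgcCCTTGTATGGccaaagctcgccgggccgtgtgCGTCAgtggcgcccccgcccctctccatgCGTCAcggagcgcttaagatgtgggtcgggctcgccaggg
Dusp2: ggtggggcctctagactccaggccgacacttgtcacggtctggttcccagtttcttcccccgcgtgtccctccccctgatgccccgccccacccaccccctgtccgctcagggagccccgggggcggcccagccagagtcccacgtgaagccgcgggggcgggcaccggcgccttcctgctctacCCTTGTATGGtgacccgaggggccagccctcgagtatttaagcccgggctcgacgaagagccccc
Dusp1: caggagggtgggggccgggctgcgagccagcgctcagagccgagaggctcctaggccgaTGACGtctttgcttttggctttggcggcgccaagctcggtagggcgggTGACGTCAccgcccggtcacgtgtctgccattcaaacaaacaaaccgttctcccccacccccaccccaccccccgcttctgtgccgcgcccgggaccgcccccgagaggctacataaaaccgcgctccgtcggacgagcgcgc
Egr2: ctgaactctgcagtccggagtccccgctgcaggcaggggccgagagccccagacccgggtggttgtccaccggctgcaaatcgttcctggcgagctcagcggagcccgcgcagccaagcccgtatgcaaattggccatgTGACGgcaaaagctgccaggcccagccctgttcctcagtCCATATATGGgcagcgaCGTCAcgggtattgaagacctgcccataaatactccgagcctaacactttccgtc

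Nr4a2 and Nr4a1 each held 4 CRE core sites, the first at 200, 144, 123 and 111 bases before its start, counted from the match's first base, and the second at 233, 213, 69 and 40 bases. Egr2 held 2, at 111 and 55 bases before the printed start. Dusp1 held 3 core sites, of which 2 overlap in the full palindrome TGACGTCA 143 bases before the start. Dusp2 held none. A core site, searched on both strands, was present in at least 1 window of 4 of the 7 genes, Egr2 having 5 windows, and of 19.8% of all 27025 genes with a promoter in the table, over 32851 windows of the same length. The full palindrome was present in 1.77% of these genes. The run CCTTGTATGG, a CArG box but for 1 base, lay 65 bases before the start of Dusp2 and 101 bases before that of Nr4a1. It was searched because Dusp2 and Nr4a1 share it, so its presence in both was fixed by that choice. It was found in 8 of all genes (0.0296%), a share for 1 exact sequence. The share of all runs that are 1 base off the CArG box was not counted, so 0.0296% cannot be set beside the CArG box share. The CArG box proper, in 1.62% of all genes, lay 72 bases before the printed start of Egr2 and 58 bases before that of Zfp36. The EGR site GCGNGGGCG was present in Nr4a2, Nr4a1, Dusp2 and Zfp36 and in 5.33% of all genes. These matches are a description of the letters in the window and not of binding.

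The comparison of MLL-AF9 with control cells asked how far these genes differed once the fusion was present. Egr1, Dusp2 and Nr4a2 were higher in MLL-AF9 cells, and the highest-level gene of the set, Zfp36, stood at 306 FPKM with MLL-AF9 and 324 FPKM in controls. A gene was called when its q-value in the authors' own table was under 0.05 and the mean of both groups was at least 1 FPKM. Of the 10 genes, 3 were called higher and 0 lower, and 3 had an unadjusted p-value under 0.05 in that table. Among the 11538 genes of the whole table that reached this mean, 5.13% were called higher, 5.20% lower and 10.3% in either direction. All 10 members reached the mean, Nr4a2 and Egr2 through their MLL-AF9 values and Egr3 narrowly, at a mean of 1.02 FPKM.

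**Figure D1:**
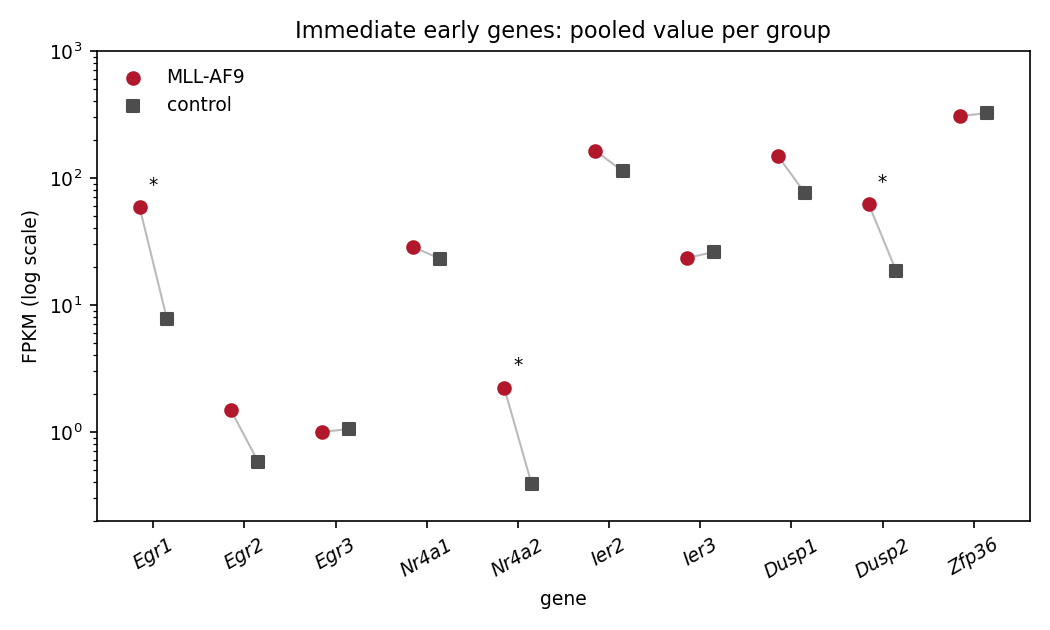
Pooled FPKM (log axis) of each gene in MLL-AF9 cells (red circles) and control cells (grey squares), with a grey line joining the pair and an asterisk over the 3 genes with q under 0.05 by the authors' deposited table. There is 1 value per group and no error bar. Egr1, Nr4a2 and Dusp2 show the widest gaps, and Zfp36, at 306 FPKM with MLL-AF9 and 324 FPKM in controls, lies highest in both groups.

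Egr1 was the member with the widest difference on the log2 scale. It stood at 58.6 FPKM with MLL-AF9 and 7.72 FPKM in controls, a 7.59-fold increase that had q = 5.61e-06 by the authors' deposited table. This placed it at percentile 84.3 of the expressed genes in MLL-AF9 cells and at percentile 36.3 in controls, so that it ranked in the upper part of the range of levels with MLL-AF9 and in the lower part in controls. Its log2 change, the log2 ratio of the FPKM values after adding 1 to each, was 2.77. The median change of all expressed genes was 0.29 on this scale, and all log2 changes are to be read against that shift.

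The other Egr genes were near the limit of 1 FPKM. Egr2, which in myeloid cells acts beside Egr1, was listed at 1.49 FPKM with MLL-AF9 and 0.582 FPKM in controls, a ratio of 2.55 with q = 0.461 by the authors' deposited table. Egr3, better known from lymphocytes and muscle spindles, was listed at 0.997 FPKM with MLL-AF9 and 1.05 FPKM in controls, with q = 0.978 by the authors' deposited table. Egr1 thus made up 95.9% of the summed Egr level in MLL-AF9 cells and 82.5% in control cells, while the share of Egr3 was 1.63% in MLL-AF9 and 11.3% in control cells. The sum of the 3 genes was 61.1 FPKM with MLL-AF9 and 9.36 FPKM in controls. Egr2 lay above Egr3 in MLL-AF9 cells and below it in control cells, although without a spread this order cannot be tested.

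Of the Nr4a receptors, Nr4a2 was called and Nr4a1 was not. Nr4a1 was the main member in both groups, at 28.5 FPKM with MLL-AF9 and 23.0 FPKM in controls, a ratio of 1.24 with q = 0.800 by the authors' deposited table. Its log2 change of 0.30 lay at percentile 50.1 of all expressed genes, at the middle of the table. Nr4a2, best known for the development of dopamine neurons, was far lower but had the larger ratio, at 2.22 FPKM with MLL-AF9 and 0.389 FPKM in controls. The ratio was 5.71, at q = 0.0460 by the authors' deposited table. Its share of the summed pair was 7.24% in MLL-AF9 and 1.66% in control cells, so that Nr4a1 exceeded it 12.8-fold in MLL-AF9 and 59.2-fold in control cells. A second annotated locus, LOC105244150, overlaps Nr4a2 in the GRCm38 annotation, as Gm32255 does Egr2. The library kit keeps no strand, so reads of overlapping transcripts cannot be separated.

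Among the MAP kinase phosphatases Dusp2 was called and Dusp1 was not. Dusp2 encodes a nuclear phosphatase of blood cells that is known to act on ERK, and it stood at 61.7 FPKM with MLL-AF9 and 18.4 FPKM in controls, a 3.34-fold increase that had q = 0.0162 by the authors' deposited table. Dusp1, a phosphatase of the stress-activated kinases p38 and JNK, was listed at 149 FPKM with MLL-AF9 and 75.6 FPKM in controls. Its ratio was 1.98 with p = 0.0595 and q = 0.259 by the authors' deposited table. Dusp1 was the larger of the pair, exceeding Dusp2 by 2.42-fold in MLL-AF9 cells and 4.10-fold in control cells. Together they summed to 211 FPKM with MLL-AF9 and 94.0 FPKM in controls, and Dusp2 supplied 29.2% of that sum in MLL-AF9 and 19.6% in control cells.

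**Figure D2:**
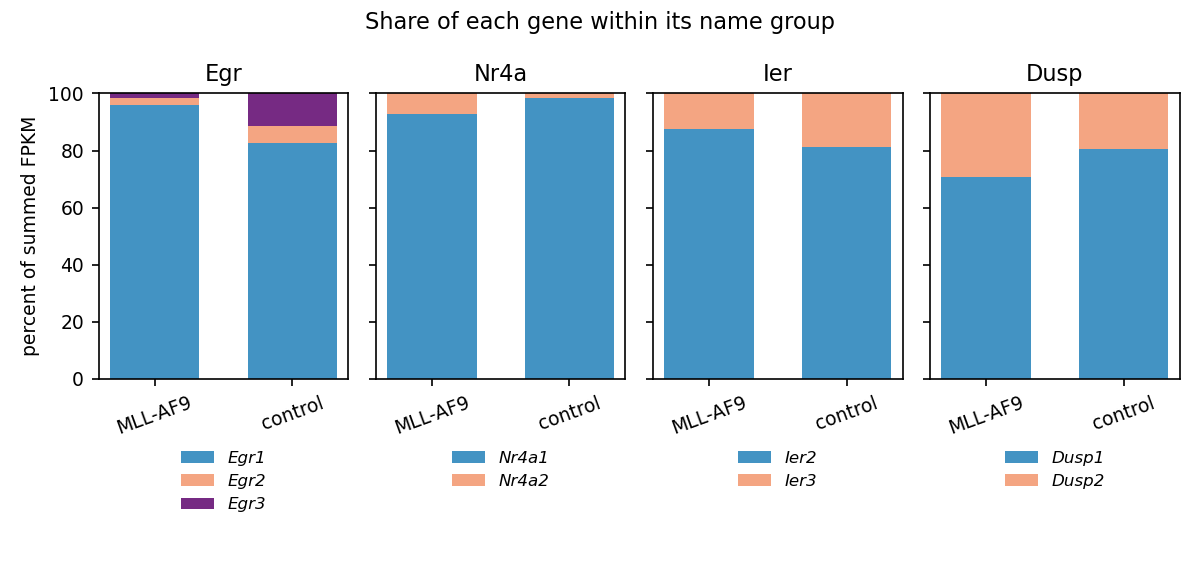
Share of each gene in the summed FPKM of its name group (percent, from 0 to 100) in MLL-AF9 cells (left bar) and control cells (right bar) for the Egr, Nr4a, Ier and Dusp genes. Egr1 made up 95.9% of the Egr sum with MLL-AF9 and 82.5% in controls, and Dusp2 29.2% of the Dusp sum with MLL-AF9 and 19.6% in controls.

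Both Ier genes and Zfp36 were not called. Ier2, a nuclear protein of the early growth response, was listed at 163 FPKM with MLL-AF9 and 113 FPKM in controls (q = 0.617 by the authors' deposited table). Ier3, a regulator of survival under stress, was listed at 23.4 FPKM with MLL-AF9 and 26.0 FPKM in controls (q = 0.921 by the authors' deposited table). Despite the shared name prefix the pair is not one protein family, and Ier2 exceeded Ier3 by 6.99-fold in MLL-AF9 and 4.33-fold in control cells. Zfp36 lay at percentile 97.2 of expressed genes in both groups, with q = 0.959 by the authors' deposited table. It made up 38.4% of the summed level of the 10 genes with MLL-AF9 and 55.0% in controls. A p-value that misses the threshold does not show that levels were alike, and no interval of these differences can be had from pooled values.

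In MLL-AF9 cells the order of levels was Zfp36, Ier2, Dusp1, Dusp2, Egr1, Nr4a1, Ier3, Nr4a2, Egr2 and Egr3, and in control cells Zfp36, Ier2, Dusp1, Ier3, Nr4a1, Dusp2, Egr1, Egr3, Egr2 and Nr4a2. The first 3 places were the same, and Dusp2 and Egr1 stood above Nr4a1 and Ier3 in MLL-AF9 but below them in control cells. Which neighbours in these orders differ beyond their spread is unknown. In all, 7 of 10 genes had the higher value in MLL-AF9 cells. Among all expressed genes, log2 changes of -0.040 (Egr3) and 0.010 (Nfkbia) lay at percentiles 29.4 and 31.8. A share near that of the 10 genes thus had the higher value with MLL-AF9. The ratio was at least 2 in 4 of the 10 genes, beside 15.1% of all expressed genes. Of these 4, Egr2 and Nr4a2 reached the 1 FPKM mean through their MLL-AF9 values. The median log2 change of the 10 was 0.59, beside 0.29 over all expressed genes.

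**Figure D3:**
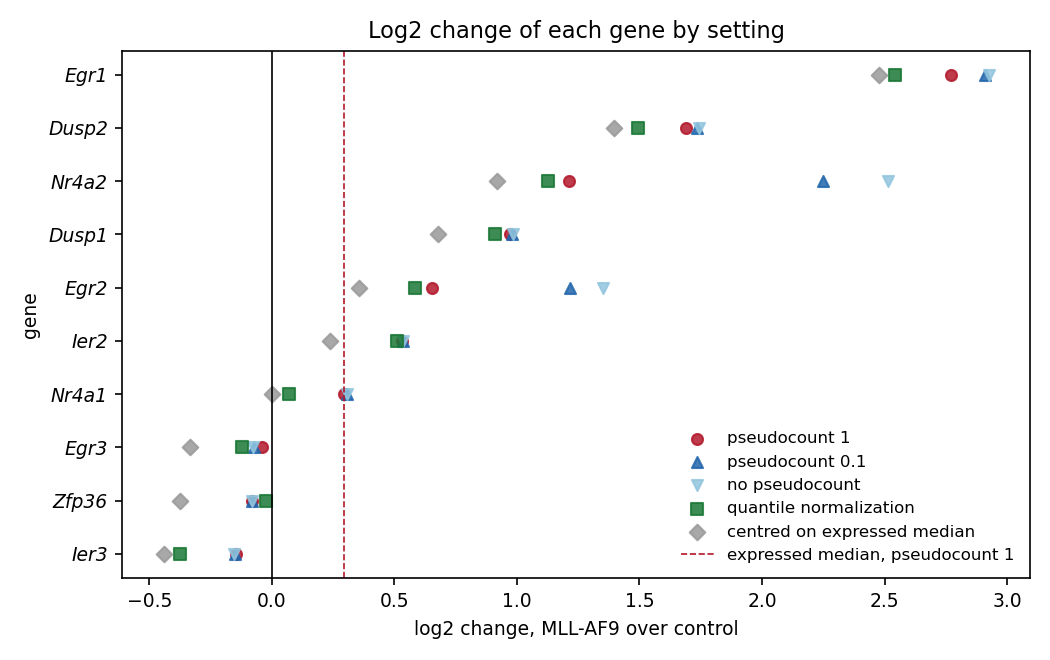
Log2 change of each gene, MLL-AF9 over control, with a pseudocount of 1 (red circles) and under 4 other settings (triangles, squares and diamonds). The solid line marks 0 and the dashed line the median of all expressed genes at 0.29. Egr1 stays between 2.48 and 2.92, and Nr4a2 ranges from 0.92 after centring to 2.51 without a pseudocount. With a pseudocount of 1, Nr4a1 lies on the dashed line.

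Other genes of the response were read from 9 lists of 125 genes, of which 117 were matched. Of the 101 with a mean of at least 1 FPKM, 12 were called higher (11.9%, beside 5.13% of all expressed genes) and 2 lower (1.98%, beside 5.20%). Among those called, Maff and Ier5l reached this mean through their MLL-AF9 values and Cd83 through its control value. The shares of all expressed genes are to be read beside the count of each list below. The lists were chosen with earlier results of these data known, so the counts are a description.

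Of 16 expressed members among the other immediate early transcription factors, 5 were higher and 0 lower, with a median log2 change of 0.80. The AP-1 subunit Fosb stood at 92.5 FPKM with MLL-AF9 and 3.30 FPKM in controls (q = 1.26e-12 by the authors' deposited table), and Jun at 209 FPKM with MLL-AF9 and 24.7 FPKM in controls (q = 2.57e-06 by the authors' deposited table). Atf3, a stress-induced factor, stood at 28.6 FPKM with MLL-AF9 and 4.91 FPKM in controls, and the clock gene Per1 at 23.3 FPKM with MLL-AF9 and 5.24 FPKM in controls. Maff, a small MAF factor named after its values were seen, was the remaining one, at 4.64 FPKM with MLL-AF9 and 0.480 FPKM in controls. Only its MLL-AF9 value brought Maff to the mean of 1 FPKM. As with the Egr, Nr4a and Dusp genes, some relatives were called and others were not, a difference that was not tested: Fos was listed at 365 FPKM with MLL-AF9 and 207 FPKM in controls (q = 0.477), and Junb at 104 FPKM with MLL-AF9 and 124 FPKM in controls (q = 0.834, both by the authors' deposited table). Nr4a3 and Egr4, the remaining relatives of the Nr4a and Egr genes, were under 0.1 FPKM in both groups, with Egr4 listed at 0 in control cells.

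Of 18 expressed immediate early effector genes, 1 was higher (5.56%, close to the 5.13% of all expressed genes) and 0 lower. Their median log2 change was -0.30, and 0.11 over all 21 matched genes without the filter on low values. The called effector was Ier5l, at 4.41 FPKM with MLL-AF9 and 0.414 FPKM in controls, so that it reached the 1 FPKM mean through its MLL-AF9 value. Of the other MAP kinase phosphatases, 5 were expressed and 0 were called from the authors' deposited table, where 0 of these 5 also had an unadjusted p-value under 0.05. Dusp6, the cytoplasmic ERK phosphatase, was listed at 27.4 FPKM with MLL-AF9 and 49.8 FPKM in controls, and Dusp5, its nuclear counterpart, at 9.83 FPKM with MLL-AF9 and 4.08 FPKM in controls.

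Among 16 expressed ERK, SRF and CREB input genes, 1 was higher (6.25%, close to the 5.13% of all expressed genes) and 0 lower, with a median log2 change of 0.54. The called gene was the SRF partner Elk4, at 14.2 FPKM with MLL-AF9 and 4.29 FPKM in controls (q = 0.0333 by the authors' deposited table). Of the 4 Egr and Nr4a partners, Rxrb, a retinoid X receptor, was higher at 67.6 FPKM with MLL-AF9 and 34.3 FPKM in controls (q = 0.00112 by the authors' deposited table). The other retinoid X receptor, Rxra, was not called, at 2.27 FPKM with MLL-AF9 and 5.47 FPKM in controls (p = 0.0481 and q = 0.225 by the authors' deposited table). Neither were the EGR corepressors, Nab1 being listed at 20.4 FPKM with MLL-AF9 and 13.8 FPKM in controls and Nab2 at 2.50 FPKM with MLL-AF9 and 3.36 FPKM in controls.

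Zfp36 relatives and deadenylation genes held 0 called genes of 12 expressed, with 2 at an unadjusted p-value under 0.05 by the authors' deposited table. Zfp36l1 was listed at 9.65 FPKM with MLL-AF9 and 21.8 FPKM in controls, and Zfp36l2 at 198 FPKM with MLL-AF9 and 123 FPKM in controls. Of 7 expressed mRNAs known as tristetraprolin targets, 2 were higher and 1 lower. The chemokines Ccl3 and Ccl4 stood at 225 and 81.2 FPKM in MLL-AF9 and at 25.0 and 8.51 FPKM in control cells, whereas Il1b stood at 4.36 FPKM with MLL-AF9 and 160 FPKM in controls. Tnf, the target from which the protein's role was first learned, was listed at 20.9 FPKM with MLL-AF9 and 17.7 FPKM in controls (q = 0.862 by the authors' deposited table). Of 13 expressed NF-κB feedback genes 0 were higher and 1 lower, where 5.13% of all expressed genes were higher and 5.20% lower. The lower gene was the dendritic and B cell marker Cd83, at 0.884 FPKM with MLL-AF9 and 7.16 FPKM in controls. Cd83 reached the 1 FPKM mean through its control value.

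**Figure D4:**
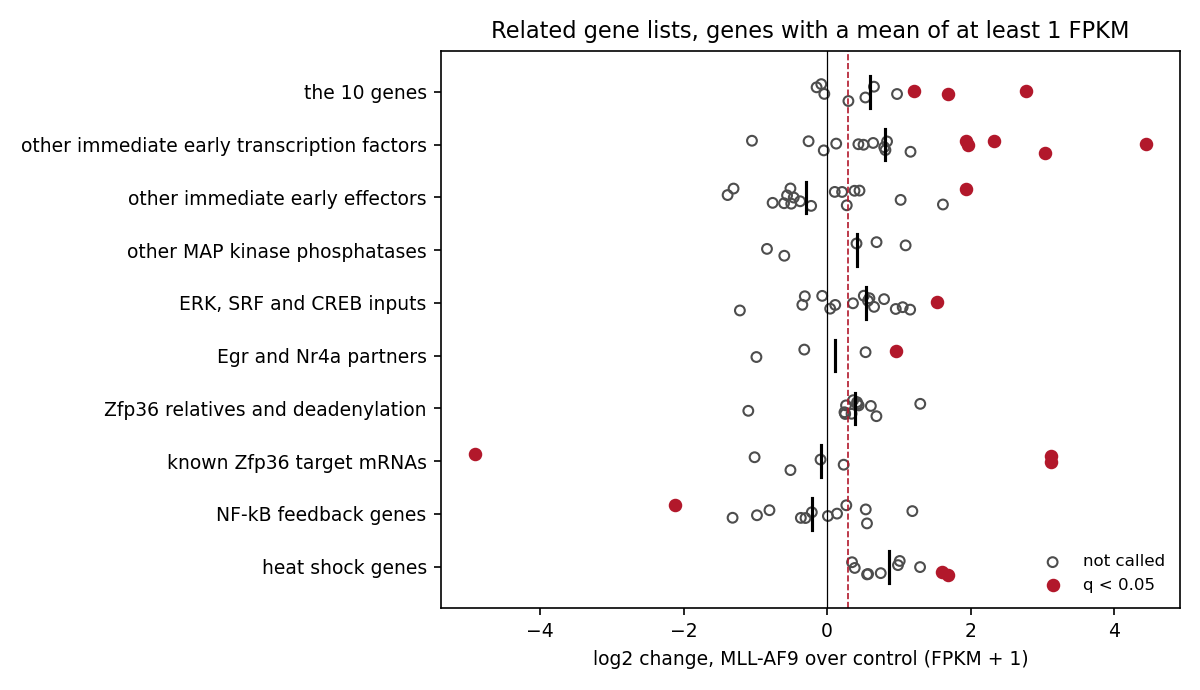
Log2 change, MLL-AF9 over control on the FPKM + 1 scale, of the 10 genes and of the expressed genes of 9 related lists, with filled red points for q under 0.05 by the authors' deposited table, open points for genes not called and a black bar at each list's median. The solid line marks 0 and the dashed line the median of all expressed genes at 0.29. List medians run from -0.30 in the immediate early effectors to 0.87 in the heat shock genes.

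Heat shock genes and cell type markers were read from the same table. Of 10 expressed heat shock genes, 2 were higher and 0 lower with a median log2 change of 0.87, and the summed level of the 11 matched genes was 3091 FPKM with MLL-AF9 and 1641 FPKM in controls. The 2 were Hspa1a, at 15.5 FPKM with MLL-AF9 and 4.13 FPKM in controls, and Hspa1b, at 15.4 FPKM with MLL-AF9 and 4.41 FPKM in controls, near-identical copies whose reads may not be separable. Late granulocyte markers summed to 22152 FPKM with MLL-AF9 and 195854 FPKM in controls, with 9 of 10 lower. B lymphoid markers summed to 37.6 FPKM with MLL-AF9 and 658 FPKM in controls (7 of 8 lower), and T and NK markers to 3.52 FPKM with MLL-AF9 and 63.7 FPKM in controls (8 of 8 lower). The T and NK markers, and other called markers under 1 FPKM with MLL-AF9, reached the 1 FPKM mean through their control values. Erythroid markers summed to 66.7 FPKM with MLL-AF9 and 251 FPKM in controls (5 of 8 lower), and eosinophil markers to 60.8 FPKM with MLL-AF9 and 272 FPKM in controls (3 of 5 expressed lower). Monocyte and macrophage markers summed to 593 FPKM with MLL-AF9 and 510 FPKM in controls (4 of 10 lower), and mast cell and basophil markers to 381 FPKM with MLL-AF9 and 454 FPKM in controls (1 of 6 higher, 2 lower). Stem and progenitor markers summed to 313 FPKM with MLL-AF9 and 149 FPKM in controls (3 of 6 higher, 1 lower). The labelled marrow cells thus showed markers of each lineage, and 0 of the matched markers were listed at 0 in either group. The part of heat shock genes and of cell makeup in the differences of the 10 genes was not tested.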

How the data were processed

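PolyA RNA was profiled in 3 MLL-AF9 and 3 control libraries, of 9 samples in all. Per the submitters' processing notes, the tools include TopHat 1.4.1 and Cufflinks 1.3.0 and the build is mm9; their roles and settings were not stated. For each gene and group the authors deposited 1 value, taken as FPKM from those tools and the values, since the header names no unit. The deposited p-value and q-value are the authors', by a test that no header names. The kit named in the labels does not mark strand. Depth per library is unknown.

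The 10 members and all lists were chosen with earlier results of these data known. The planned limma fit needs values per library, so no test was computed and calls need a q-value of the authors under 0.05 and a mean of both groups of at least 1 FPKM. S100a9, at 10526 FPKM with MLL-AF9 but listed at 0 in controls and carrying a p-value of 1, was left out as a failed estimate. Of the 8 marker lists, symbols were matched directly or through RefSeq synonyms. Named genes are the 10 members, up to 4 called genes per list with the smallest q-value, and a set fixed by name (relatives, corepressors, AP-1 genes, Zfp36 targets and heat shock genes). Motifs were searched on both strands of RefSeq sequence of GRCm38.p6. Regions of 5hmC, given in mm9, were not used here, since gene positions of that build were not at hand. Alternatives were other pseudocounts, scalings, filters and q thresholds, and the scaling step was tested on simulated data. Python 3.11.15, numpy 2.4.6, pandas 2.3.3 and matplotlib 3.10.9 were used.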

Additional observations from a re-analysis of the deposited data

How the results depend on the processing

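Each of the 10 genes kept the sign of its log2 change with a pseudocount of 0.1, without a pseudocount, under quantile normalization and after centring on the median of expressed genes, although Nr4a1 then lay at 0.068 under quantile normalization and 0.0015 after centring. The median over the 10 genes ranged from 0.30 (centred) to 0.76 (no pseudocount). Nr4a2 was 1.21 with a pseudocount of 1 and 2.51 without one, since its control level is under 1 FPKM. Its change was 1.13 under quantile normalization and 0.92 after centring. At a q-value under 0.01 only Egr1, 1 of the 10 genes, remained called higher, and 362 rather than 592 genes of the whole table did. With a mean of at least 5 FPKM, 2 of the 10 genes were called, Nr4a2 falling below that mean, and 1 rather than 2 list genes was lower, since Cd83 fell below it. Medians of related lists changed sign in 6 instances, for which the cause was not tested: immediate early effectors 0.11 and MAP kinase phosphatases -0.00044 without a filter, Egr and Nr4a partners -0.13 under quantile normalization and -0.19 after centring, and, with a mean of at least 5 FPKM, known Zfp36 targets 0.23 and NF-κB feedback genes 0.010. The median of all expressed genes was 0.086 under quantile normalization. No paired analysis was possible because the table holds 1 pooled value per group, and leaving out a library could not be run for the same reason. Depth, spread between libraries and how many of them were pooled are unknown, which limits every value here.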

Other observations

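The CArG-like run shared by the Dusp2 and Nr4a1 promoters was also found before the starts of 6 other genes, 5 of which are in the RNA table under the same symbol. Of these Ckm, which encodes the muscle creatine kinase, stood at 7.30 FPKM with MLL-AF9 and 0.147 FPKM in controls, with q = 3.09e-06 by the authors' deposited table. Ckm reached the 1 FPKM mean through its MLL-AF9 value. Wdr13, at 21.3 FPKM with MLL-AF9 and 12.4 FPKM in controls, was not called. Neither was Fbxo31, at 5.03 FPKM with MLL-AF9 and 7.95 FPKM in controls. The circadian repressor Nr1d1 was listed at 0.603 FPKM with MLL-AF9 and 1.34 FPKM in controls, and 4833427F10Rik at 0.123 FPKM with MLL-AF9 and 0.0201 FPKM in controls. Both lay under the 1 FPKM mean and could not be called. These genes were named after the sequences were searched.

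The 5 genes nearest to the median pair of levels of the 10 genes, by Euclidean distance in log2(FPKM + 1) over 2 groups, were Sgms2, Taok3, Nsun2, Aim2 and Dkc1, at distances of 0.015 to 0.060. Of these, Taok3 was called, at 41.8 FPKM with MLL-AF9 and 20.2 FPKM in controls (q = 0.0289 by the authors' deposited table). With 1 value per group, likeness of this kind describes levels only.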
